A study of Mus musculus with 12 samples.

Results

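The comparison of 3 lasered retinas with 3 untreated control retinas, all collected 7 days after photocoagulation, uses 6 of the 12 libraries of the series. It covers every gene of the day 7 table whose mean deposited value over those 6 libraries was at least 1, which left 15592 of 54367 genes, and it was made on log2(value + 1). A gene under 1 in 1 group could pass that filter through the other group alone. This tilts the counts and medians of low genes towards a difference. The mice were wild type C57BL/6, 8 to 12 weeks old. A 532 nm laser with a 75 µm spot and a pulse of 0.1 s burned the right retina at 4 clock positions, and the left eye of each mouse served as its untreated control. Both groups therefore share the strain, the anaesthesia and the day, and differ in the eye and the laser. A control here is a fellow eye and not a retina from an unlasered mouse. The labels give 3 retina samples per group and do not tie a replicate number to 1 mouse, so the p-values measure only the spread between these samples. The other 6 libraries, from lasered and control retinas of day 3, are used at the end of the text only to set the laser difference of a gene beside its earlier one.

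The retina holds layered neurons, a vascular bed, Müller glia that span its depth, astrocytes and resident microglia. After a burn, microglia and any recruited myeloid cells take up debris, make complement and present antigen on MHC molecules, whereas Müller glia and astrocytes enter reactive gliosis, marked by the intermediate filament protein GFAP. A laser burn that breaks Bruch's membrane is also the standard way to start choroidal neovascularization in mice, a model in which new vessels grow from the choroid under the retina.

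Reads assigned to genes were recovered from the steps of the deposited values and ranged from 22683076 to 29487401 per library, and in a gene of 1 kb of exon a count of 3 reads is worth a value between 0.292 and 0.380. Those limits cover counting error only. The labelled tissue was checked on genes of rods, the most numerous cells of the mouse retina, and Nrl, the transcription factor that specifies them, was at 1324, 875 and 1205 in lasered retinas and 1682, 1471 and 1321 in controls. Laser 2 stood apart, with a median correlation of 0.943 to the other 5 libraries against 0.968 to 0.979, with 4.21% of its summed signal in mitochondrially encoded genes against 1.10% to 2.54%, and with a value of 77.6 for the nuclear RNA Malat1 against 10.6 to 36.5. Laser 1 alone held lens crystallins at high level, with Cryaa at 546 against at most 0.377 elsewhere. Values below are listed in the order of replicates 1, 2 and 3 and are the deposited values per gene, and differences between groups are of log2(value + 1), so the change of low genes is understated.

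In lasered retinas 37 genes rose and 1 fell at an adjusted p under 0.05 (limma, Benjamini-Hochberg over the 15592 genes), which is 0.237% and 0.00641% of the genes tested. The risers were led by MHC class II genes, lysozyme, complement, microglial genes and genes of reactive glia. Of the 37, 36 rose by more than 1 on the log2 scale and 21 by more than 2, and in each of the 38 called genes the laser and control values did not overlap. The median difference over all genes tested was 0.06. At an unadjusted p under 0.05, 490 genes (3.14%) were higher and 124 (0.795%) lower. Laser values lay wholly above the control values in 1057 genes (6.78%) and wholly below in 329 (2.11%), which is the background for the counts of separated genes given below. The gene lists were chosen with earlier results of these data known. A high count in a list is therefore a description with no support of its own.

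**Figure D1:**
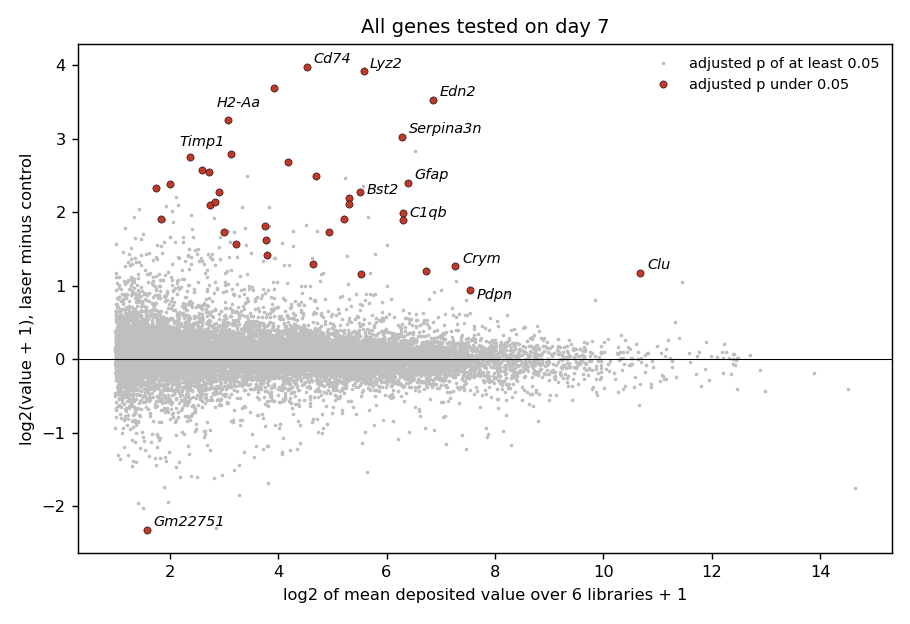
Each point is 1 of the 15592 genes tested on day 7, with the log2 of its mean deposited value over 6 libraries plus 1 on the x axis and the laser minus control difference of log2(value + 1) on the y axis. The 38 genes at an adjusted p under 0.05 are in red, with 37 above 0 and Gm22751 alone below it.

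These calls rest on 3 libraries per group and the count moved with the libraries used. Without laser 3 or without control 3, limma called 0 genes (smallest adjusted p 0.0644 and 0.0514, with 452 and 385 genes at an unadjusted p under 0.05), and without laser 1, control 1 or control 2 it called 11, 9 and 6. Without laser 2 it called 41, and the 38 genes kept their direction in each of these 6 refits. In voom on the recovered reads 15 of the 32 called genes with recovered reads still passed, and voom called no other gene. Reads were not recovered for Cd74, H2-Eb1, H2-Aa, H2-Ab1, H2-K1 and Csf1r, whose start or end differed from that in GENCODE M21. Voom therefore did not test these genes, among them all 4 class II risers. After median-of-ratios rescaling 22 of the 38 still passed. The other 16, at adjusted p between 0.0516 and 0.366, were Pdpn, Stat3, Clu, H2-K1, Crym, Csf1r, Laptm5, Unc93b1, Tyrobp, Fcgr3, H2-Ab1, C1qa, C1qc, Lad1, Gfap and Bcl3.

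Antigen presentation on MHC class II held 3 of the 5 largest differences. Of its 7 tested members 4 rose (Cd74, H2-Eb1, H2-Aa and H2-Ab1), 6 of 7 were separated between the groups, and the median difference of the 7 was 1.81. Without laser 3 or control 3, 0 of the 7 passed, and without another library 2 to 4 did. Another 4 of the list's 11 members were under the mean of 1. Cd74, the invariant chain that escorts class II molecules to the endosome, had values of 51.6, 36.7 and 38.7 in lasered retinas and 2.08, 1.45 and 1.68 in controls. This was the gene with the smallest adjusted p of the comparison, a 24.4-fold ratio of the group means (log2 difference 3.98, SE 0.21, adjusted p = 0.00309). H2-Eb1, a class II beta chain (chromosome 17, 34305877 to 34316199 in the mm10 build), had 35, 23.2 and 23.4 against 1.99, 1.02 and 0.647 (log2 difference 3.69, SE 0.30, adjusted p = 0.00785). H2-Aa, the alpha chain of I-A (chromosome 17, 34282744 to 34287827), had 15.2, 13 and 14.4 against 0.521, 0.806 and 0.471 (log2 difference 3.25, SE 0.22, adjusted p = 0.00444). H2-Ab1, the beta chain that pairs with it, started from a higher control level, 6.21, 4.56 and 4.13, and reached 24.2, 15.8 and 19.9 (log2 difference 1.81, SE 0.24, adjusted p = 0.0444). Lasered and control values stayed apart in all 4 of these genes. Laser 1 had the highest value of Cd74, H2-Eb1, H2-Aa and H2-Ab1.

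Class II promoters are known for a Y box, an inverted CCAAT motif close to the start of transcription. A pair of risers is shown because both rose and both carry that motif. The 250 bases before the RefSeq start (GRCm38.p6) are printed 5′ to 3′ on the gene's strand, with CCAAT or its reverse complement ATTGG in capitals.
H2-Aa (chr17:34287824-34288073, minus strand): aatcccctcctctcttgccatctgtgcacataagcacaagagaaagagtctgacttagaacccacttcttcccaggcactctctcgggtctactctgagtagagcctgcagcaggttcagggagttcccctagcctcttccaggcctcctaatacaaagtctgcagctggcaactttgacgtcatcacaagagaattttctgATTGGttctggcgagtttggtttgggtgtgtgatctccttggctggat
H2-Eb1 (chr17:34305617-34305866, plus strand): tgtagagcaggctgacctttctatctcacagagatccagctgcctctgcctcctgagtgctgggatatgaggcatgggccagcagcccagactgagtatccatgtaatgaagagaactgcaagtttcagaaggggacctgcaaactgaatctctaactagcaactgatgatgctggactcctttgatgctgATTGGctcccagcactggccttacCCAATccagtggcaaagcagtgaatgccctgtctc
The match of H2-Aa starts 48 bases before the start, and those of H2-Eb1 start 59 and 35 bases before it. Promoters were matched by symbol for 23 of the 37 risers, and 11 of the 23 held CCAAT on either strand, as did 33.8% of 32851 RefSeq promoters. The class II risers Cd74 and H2-Ab1 were not among the 11, being either unmatched or without the motif. The 11 included risers outside class II, such as Cd68, Timp1, S100a6 and Stat3. A match is a description of the letters only.

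MHC class I genes were separated in 12 of 13 tested members, with a median difference of 1.06, but 1 member rose, and 0 did when any library other than laser 2 was left out. This was H2-K1, a classical class I heavy chain, with 133, 137 and 170.1 in lasered retinas and 66.5, 61.6 and 60.3 in controls (log2 difference 1.20, SE 0.14, adjusted p = 0.0285). Reads of the H2-K, H2-D and H2-Q genes resemble each other, and no source used here gives how shared reads were counted, so the value of H2-K1 is uncertain. Psmb8, an immunoproteasome subunit, had 8.45, 9.85 and 9.26 against 2.97, 3.17 and 3.45 and did not pass (log2 difference 1.28, adjusted p = 0.0922). B2m, the light chain of class I, was at 51.6, 179 and 63.5 against 20.04, 41.3 and 26, and laser 2 was far above the other lasered retinas (log2 difference 1.56, SE 0.48, adjusted p = 0.777). With the replicate number as a block in the limma fit, 4 of the 13 class I genes rose, among them Psmb8 (adjusted p = 0.0444) and B2m (adjusted p = 0.0465).

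**Figure D2:**
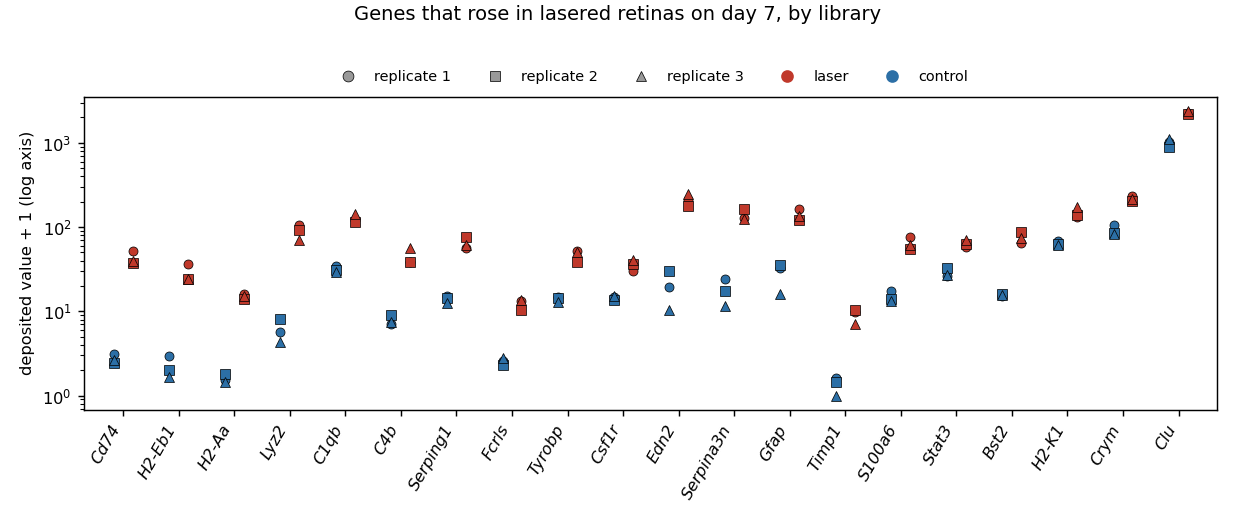
Deposited value plus 1 on a log axis for 20 genes that rose, with 1 point for each of the 3 laser libraries (red) and 3 control libraries (blue) and the marker shape giving the replicate number. In each gene the red points lie above the blue ones, with the largest differences in Cd74, Lyz2, H2-Eb1 and Edn2 and the smallest in Stat3, Clu, H2-K1 and Crym.

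Complement genes rose in 5 of 9 tested members, and 8 of 9 were separated between the groups (median difference 1.90). Without laser 3 or control 3, 0 of the 9 passed, without control 1, control 2 or laser 1 it was 2, 1 and 3, and without laser 2 it was 5. The 3 chains of C1q, the recognition molecule of the classical pathway, lie side by side on chromosome 4, from C1qb at 136880129 to 136886187 to C1qa at 136895917 to 136898803, and they moved by similar amounts. C1qb had 121, 113 and 141 in lasered retinas and 33.2, 30.4 and 28.7 in controls (log2 difference 1.98, SE 0.14, adjusted p = 0.00444). C1qa had 125, 96.9 and 149 against 36.6, 32.4 and 27.3 (log2 difference 1.90, SE 0.19, adjusted p = 0.0202), and C1qc had 54.8, 48.8 and 68 against 17.9, 14.7 and 11.4 (log2 difference 1.90, SE 0.21, adjusted p = 0.0230). All 3 chains were lowest in laser 2 among the lasered retinas. C4b, the next component cleaved in the pathway, had 37, 37.9 and 55.4 against 6.01, 8.01 and 6.40 (log2 difference 2.49, SE 0.22, adjusted p = 0.0102), and it shares most of its sequence with the neighbouring C4a. Serping1, the inhibitor of the C1 proteases, rose as well, with 55.1, 76 and 60.5 against 14.3, 13.5 and 11.5 (log2 difference 2.19, SE 0.18, adjusted p = 0.00785). C3, on which all complement pathways converge, was at 4.02, 6.63 and 8.04 against 2.15, 2.20 and 1.67 and did not pass (log2 difference 1.23, SE 0.28, adjusted p = 0.365). The remaining 6 of the 15 listed complement genes were under the mean of 1.

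The promoters of C1qb and C1qc are shown because these genes are made by myeloid cells and both hold GAGGAA, the core bound by the myeloid factor PU.1. Capitals mark GAGGAA or its reverse complement TTCCTC.
C1qb (chr4:136886201-136886450, minus strand): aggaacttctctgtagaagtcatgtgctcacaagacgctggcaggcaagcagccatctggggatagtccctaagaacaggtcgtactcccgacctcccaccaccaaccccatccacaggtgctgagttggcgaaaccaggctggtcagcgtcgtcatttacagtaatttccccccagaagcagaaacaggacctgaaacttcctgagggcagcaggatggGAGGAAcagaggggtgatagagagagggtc
C1qc (chr4:136892915-136893164, minus strand): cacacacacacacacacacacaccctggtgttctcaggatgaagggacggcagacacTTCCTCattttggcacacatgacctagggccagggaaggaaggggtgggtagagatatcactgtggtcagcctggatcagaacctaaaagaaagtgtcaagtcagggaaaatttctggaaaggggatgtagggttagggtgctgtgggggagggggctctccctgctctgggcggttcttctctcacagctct
The match starts 30 bases before the start of C1qb and 193 before that of C1qc. GAGGAA was found in 8 of the 23 matched risers (C1qb, C1qc, Cd68, Fcgr3, Fcrls, Gm16174, Laptm5 and Wfdc17) and in 23.3% of all 32851 promoters.

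Microglial genes rose in 4 of 15 tested members and were separated in 14 of 15 (median difference 1.10). Without laser 2 the test called 2 of 15, and without any other library 0 of 15, while all 15 lay above 0 in each of these 6 refits. Fcrls, an Fc receptor-like scavenger protein of microglia, had 12.3, 9.42 and 12.6 in lasered retinas and 1.54, 1.32 and 1.83 in controls (log2 difference 2.27, SE 0.22, adjusted p = 0.0189). Tyrobp, the adaptor that signals for TREM2 and related receptors, had 51, 37.5 and 49.8 against 14, 13.6 and 11.9 (log2 difference 1.73, SE 0.18, adjusted p = 0.0202). Csf1r, the receptor that keeps microglia and macrophages alive, had 29.1, 35.8 and 39.4 against 13.7, 12.6 and 14.2 (log2 difference 1.29, SE 0.17, adjusted p = 0.0444). Neither gene had overlapping groups. Csf1r shares its locus with the opposite-strand gene Hmgxb3. Laptm5, a lysosomal membrane protein of blood-derived cells, rose by 1.41 (SE 0.18, adjusted p = 0.0444), whereas Aif1, which encodes the microglial marker IBA1, had 2.66, 6.24 and 4.21 against 0.559, 1.40 and 0.494 and did not pass (log2 difference 1.54, SE 0.34, adjusted p = 0.346). Tmem119 and P2ry12, markers of resting microglia named after their values were seen, gave 7.96, 4.79 and 11.0 against 6.39, 6.22 and 5.06, and at most 0.421 in any library. In whole retinas more cells of a type and more RNA per cell cannot be told apart.

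Phagocyte genes rose in 3 of 18 tested members (Lyz2, Fcgr3 and Cd68), with 12 of 18 separated and a median difference of 0.58. Without laser 3 or control 3 it was 0 of 18, without laser 1, control 1 or control 2 it was 1, and without laser 2 it was 3. Lyz2, the lysozyme of macrophages and activated microglia, went from 4.63, 7.20 and 3.30 in controls to 105, 90.9 and 69.6 in lasered retinas, a 17.5-fold ratio of means (log2 difference 3.92, SE 0.27, adjusted p = 0.00444). Its close copy Lyz1 could share reads with it. Cd68, a lysosomal glycoprotein of phagocytes, had 20.8, 19.6 and 18.4 against 5.95, 5.29 and 5.92 (log2 difference 1.62, SE 0.17, adjusted p = 0.0202). Fcgr3, a receptor for IgG complexes, had 11.2, 9.68 and 12.9 against 3.06, 2.64 and 2.37 (log2 difference 1.73, SE 0.21, adjusted p = 0.0372), and its signalling chain Fcer1g missed the threshold at 22.6, 37.3 and 27 against 6.01, 9.22 and 8.36 (log2 difference 1.75, adjusted p = 0.0612). Among genes of disease-associated microglia, 1 of 8 tested members rose and 7 of 8 were separated (median difference 0.97). The riser was Cd52, a small surface glycoprotein of leukocytes, with 6.77, 10.1 and 12.8 against 1.35, 1.29 and 1.81 (log2 difference 2.10, SE 0.28, adjusted p = 0.0444). The cystatin Cst7 had 4.44, 3.83 and 6.27 against 0.879, 0.204 and 0.640 and did not pass (log2 difference 1.90, adjusted p = 0.0831). With the replicate block 6 of the 18 phagocyte genes and 3 of the 8 genes of disease-associated microglia rose, Fcer1g (adjusted p = 0.0108) and Cst7 (adjusted p = 0.0445) among them. When any 1 of the 6 libraries was left out, 0 of the 8 passed. A pair of further myeloid genes outside the lists rose. Wfdc17, a secreted protein of activated macrophages, had 4.15, 4.70 and 4.97 against 0, 0.374 and 0, from 21, 21 and 27 reads against 0, 2 and 0 (log2 difference 2.33, SE 0.25, adjusted p = 0.0202). Unc93b1, which carries nucleic acid-sensing Toll-like receptors to endosomes, had 12.9, 11.2 and 14.9 against 4.01, 3.30 and 3.82 (log2 difference 1.57, SE 0.20, adjusted p = 0.0444).

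Markers of recruited leukocytes were mostly at or near 0. Of 14 monocyte and macrophage genes 2 reached the mean of 1, of 11 neutrophil genes 1, of 18 lymphocyte genes 2 and of 6 dendritic cell genes 2, and 0 of these 7 tested genes passed (limma; 4 were at an unadjusted p under 0.05, all higher). Among those 4, Adgre1 and Fcgr1 of the monocyte list and Csf3r of the neutrophil list had control means of 0.324, 0.779 and 0.984. Their laser means were 3.24, 3.67 and 2.75. They passed the filter only through the laser group, so their direction was partly fixed by it. The summed level of the monocyte list was 5.87, 13.4 and 8.82 in lasered retinas and 1.40, 2.28 and 1.98 in controls, and that of the neutrophil list was 3.43, 3.20 and 5.02 against 1.66, 2.32 and 1.20. The lymphocyte list summed to 9.62, 16 and 10.9 against 7.26, 7.98 and 6.86, and the dendritic cell list to 5.00, 6.91 and 4.50 against 3.61, 5.29 and 4.24, the last with overlapping groups. Ccr2, the chemokine receptor of inflammatory monocytes, was listed at 0 in 5 of 6 libraries, the neutrophil genes Ly6g and Elane and the macrophage genes Chil3 and Mrc1 were listed at 0 in all 6, and the T cell gene Cd3e was at most 0.0617. Ptprc, the pan-leukocyte antigen that microglia carry too, was itself at most 0.0275, so a low listed value does not speak for the absence of leukocytes. Adgre1, which encodes the macrophage marker F4/80, had 1.79, 4.59 and 3.35 against 0.0661, 0.592 and 0.315 and did not pass (log2 difference 1.64, SE 0.33, adjusted p = 0.256).

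Cytokines and chemokines had 0 of 10 tested members past the threshold (limma), with 5 at an unadjusted p under 0.05 and 5 separated, and a median difference of 0.57. Ccl12, a chemoattractant for monocytes, had 4.32, 6.75 and 3.97 in lasered retinas and 0.197, 2.18 and 0.680 in controls (log2 difference 1.67, SE 0.40, adjusted p = 0.411). Ccl5 had 6.25, 2.16 and 7.29 against 0.334, 0.840 and 0 (log2 difference 2.09, SE 0.43, adjusted p = 0.266). With a control mean of 0.392 and a laser mean of 5.24, Ccl5 passed the filter only through the laser group. Another 10 of the 20 listed members were under the mean of 1. The counts and the median of the tested 10 therefore lean towards a difference. Both Ccl12 and Ccl5 were wholly higher after the laser but varied widely within groups. Ccl2, the main ligand of CCR2, was below the filter at 0.370, 0.839 and 0.690 against 0 in each control, and Il1b was at 0.111, 0 and 0.356 against 0 in each control. Among adhesion genes 0 of 5 passed (2 at an unadjusted p under 0.05), and Itgb2, the shared beta chain of leukocyte integrins, had 7.10, 5.98 and 5.60 against 0.999, 1.31 and 1.51 (log2 difference 1.67, adjusted p = 0.0512), and it passed with the replicate block (adjusted p = 0.0465).

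Reactive gliosis genes rose in 7 of 22 tested members (Edn2, Serpina3n, Bcl3, Timp1, Gfap, S100a6 and Stat3), with 17 of 22 separated and a median difference of 1.35. Without laser 3 or control 3, 0 of the 22 passed, without laser 1, control 1 or control 2 it was 2, 2 and 1, and without laser 2 it was 8. Gfap, the filament gene by which gliosis is usually scored, had 164, 119.7 and 136 in lasered retinas and 31.5, 34.3 and 15.2 in controls (log2 difference 2.40, SE 0.30, adjusted p = 0.0419). Serpina3n, a secreted protease inhibitor of reactive glia, had 126, 162 and 125 against 23.5, 16.2 and 10.4 (log2 difference 3.03, SE 0.28, adjusted p = 0.0137). It belongs to a cluster of similar serpin genes among which reads may be split. S100a6, a calcium-binding protein, had 75.2, 54.6 and 60.7 against 16.3, 13.1 and 12.2 (log2 difference 2.12, SE 0.18, adjusted p = 0.0102). Timp1, an inhibitor of matrix metalloproteases, had 8.89, 9.26 and 6.12 against 0.636, 0.438 and 0, from 74, 69 and 56 reads against 5, 4 and 0 (log2 difference 2.75, SE 0.29, adjusted p = 0.0202), and lies within Syn1 on the opposite strand. Stat3, the transcription factor downstream of IL-6 family cytokines, had 57.6, 61.7 and 68.8 against 25.1, 31.4 and 26.1 (log2 difference 1.16, SE 0.15, adjusted p = 0.0444). Control 3 had the lowest value of Gfap, Serpina3n, S100a6 and Timp1 among the 6 libraries. Of the rest of the list, the fibroblast growth factor Fgf2 had 2.87, 9.80 and 4.42 against 0.463, 1.02 and 0.558 and did not pass (log2 difference 1.87, SE 0.40, adjusted p = 0.307).

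Edn2 encodes endothelin 2, a peptide that photoreceptors release after damage in mouse models and that signals to Müller glia. Its value was 209, 176 and 248 in lasered retinas and 18.5, 29 and 9.28 in controls, the largest difference of the gliosis list and an 11.1-fold ratio of means (log2 difference 3.53, SE 0.37, adjusted p = 0.0202). The rest of the endothelin system did not pass. Of its 3 tested members 0 passed and 0 were at an unadjusted p under 0.05 (limma): Edn1 was at 1.13, 2.12 and 1.38 against 1.06, 2.47 and 1.12 (log2 difference 0.02, adjusted p = 1.00), and the converting enzymes Ece1 and Ece2 differed by -0.05 and -0.09. Both receptor genes and Edn3 were under the mean of 1.

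Bcl3, an atypical IκB protein that works with NF-κB in the nucleus, had 16.2, 7.61 and 19.5 in lasered retinas and 0.984, 1.72 and 0.689 in controls, with laser 2 the lowest of the lasered retinas (log2 difference 2.79, SE 0.38, adjusted p = 0.0475). Its call was lost in the fit with the replicate number as a block (adjusted p = 0.0676). Gm16174 lies antisense within Bcl3 on chromosome 7 (19816553 to 19818625) and had 11.3, 6.91 and 10.1 against 0.527, 1.06 and 0.606 (log2 difference 2.58, SE 0.27, adjusted p = 0.0202). Fgf2os, which overlaps the start of Fgf2 on the opposite strand, had 9.26, 9.78 and 11.7 against 1.35, 1.19 and 0.350 (log2 difference 2.55, SE 0.28, adjusted p = 0.0230). The kit keeps the strand of a read, but no source used here gives whether the counting used it, so reads of these antisense genes and their partners cannot be told apart.

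Müller glia genes rose in 2 of 13 tested members (Crym and Clu), with 7 of 13 separated and a median difference of 0.47. All 13 differences lay above 0, as did 9585 of the 15592 genes tested. Without laser 2 the list's median was 0.21 and without control 1 it was 0.32, with 12 of 13 above 0 in both, and 0 of 13 passed when any library other than laser 2 was left out. Crym, a cytosolic binder of thyroid hormone enriched in Müller glia, had 232, 203 and 215 in lasered retinas and 105, 83.4 and 82.1 in controls (log2 difference 1.26, SE 0.14, adjusted p = 0.0243). Clu encodes clusterin, a secreted chaperone that also holds back the terminal complement complex, and had 2244, 2200 and 2386 against 1022, 885 and 1120 (log2 difference 1.18, SE 0.16, adjusted p = 0.0444). Both genes were abundant in controls already and their group values did not overlap. Prdx6, a peroxidase, had 234, 212 and 231 against 152, 135 and 151 (log2 difference 0.63, adjusted p = 0.211), and the carbonic anhydrase Car14 had 191, 165 and 195 against 118, 107 and 149 (log2 difference 0.57, adjusted p = 0.648). Pdpn, a membrane glycoprotein outside the lists, had 231, 259 and 240.2 against 126, 122 and 132, and it was the riser with the smallest difference (log2 difference 0.94, SE 0.12, adjusted p = 0.0372).

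**Figure D3:**
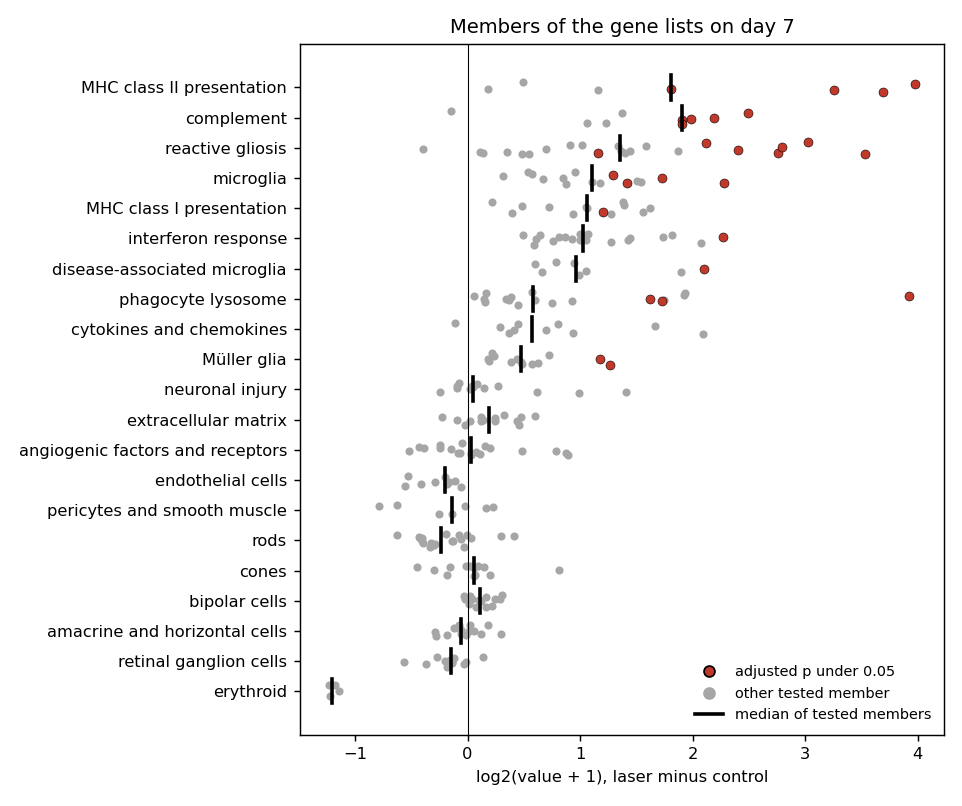
Each row is a gene list and each point a tested member, placed by its laser minus control difference of log2(value + 1), with members at an adjusted p under 0.05 in red and the list's median as a black bar. The medians of the MHC class II and complement lists are the farthest right at 1.81 and 1.90, those of the neuronal and vascular lists lie within 0.24 of 0, and the 4 globin genes of the erythroid list sit together near -1.20.

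Interferon-stimulated genes all lay above 0 in their 20 tested members, with a median difference of 1.02 and 15 of 20 separated, but 1 of 20 rose, and 0 did without laser 3 or control 3. Bst2, the antiviral membrane tether, had 64.4, 87.3 and 73.4 in lasered retinas and 14.1, 15.1 and 14.7 in controls, with little spread among the controls (log2 difference 2.27, SE 0.16, adjusted p = 0.00444). Irf9, the DNA-binding part of the interferon-activated complex, had 30.9, 41.8 and 35.7 against 16.6, 16.7 and 16.4 and did not pass (log2 difference 1.07, adjusted p = 0.0831). Irf1 had 11.3, 11.2 and 12 against 5.94, 5.78 and 5.88 (log2 difference 0.86, adjusted p = 0.261), and Ifitm3 had 64.4, 92.1 and 100.1 against 43.6, 34.9 and 46.8 (log2 difference 1.00, adjusted p = 0.261). The summed level of the list was 334, 656 and 438 against 181, 196 and 205, highest in laser 2, the library with the high mitochondrial share. Without laser 2 the list's median difference was 0.85.

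The Bst2 promoter is shown because it was 1 of 23 matched risers to hold GAAANNGAA, the core letters of the interferon-stimulated response element, which 7.13% of all promoters held. Capitals mark its overlapping matches, which start 130 and 124 bases before the start.
Bst2 (chr8:71537473-71537722, minus strand): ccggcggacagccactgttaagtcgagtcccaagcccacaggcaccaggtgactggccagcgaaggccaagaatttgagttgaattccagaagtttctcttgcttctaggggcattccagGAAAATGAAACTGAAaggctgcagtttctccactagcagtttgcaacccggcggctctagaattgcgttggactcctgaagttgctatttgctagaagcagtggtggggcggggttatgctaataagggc
The STAT motif TTCNNNGAA was found in 2 of the 23 (Bst2 and Gm16174) and in 7.02% of all promoters, and in Bst2 a match of it overlaps the first GAAANNGAA.

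Photoreceptor and neuron genes had 0 members past the threshold in each list (limma). Rod genes lay below 0 in 17 of 20 members with a median of -0.24, against 0.06 over all genes, and 1 of 20 was at an unadjusted p under 0.05. Their summed level was 72341, 57639 and 66641 in lasered retinas and 82372, 75189 and 80996 in controls, so the groups did not overlap. Reep6, a membrane-shaping protein of rods, was at 1624, 817 and 1449 against 2001, 1851 and 1917 (log2 difference -0.63, SE 0.26, adjusted p = 1.00), and Nrl, with the levels given above, had a log2 difference of -0.41, SE 0.20, adjusted p = 1.00. Laser 2 had the lowest value of both genes, yet without it 18 of the 20 rod genes still lay below 0, with a median of -0.23. Without control 2, however, 12 of 20 did, with a median of -0.10, and without laser 1 it was 13 of 20, with a median of -0.13. The values are relative to the library, so less rod RNA and more RNA of other kinds cannot be told apart.

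Cone genes had a median difference of 0.05 over 13 members, with 1 at an unadjusted p under 0.05. That was Gnb3, the beta subunit of cone transducin that ON bipolar cells also make, at 1235, 1009 and 1260 against 721, 606 and 668 (log2 difference 0.81, adjusted p = 0.208). Bipolar cell genes had a median of 0.11 over 14 members and amacrine and horizontal cell genes -0.06 over 15, with 0 at an unadjusted p under 0.05 in both. The medians of these 3 lists lay on either side of 0 depending on the library left out, between -0.09 and 0.08 for cones, -0.01 and 0.24 for bipolar cells and -0.16 and 0.09 for amacrine and horizontal cells. Retinal ganglion cell genes lay below 0 in 11 of 12 members (median -0.15), with 0 at an unadjusted p under 0.05. Without control 2 it was 6 of 12 (median -0.03), and without laser 1 it was 7 of 12 (median -0.17). Their neurofilament gene Nefm was at 21, 18.5 and 24.9 against 24.2, 46 and 29.4 (log2 difference -0.56, SE 0.25, adjusted p = 1.00). The neuronal injury list had a median of 0.05 over 13 members, 2 at an unadjusted p under 0.05, and the median lay between 0.01 and 0.24 (the latter without laser 2) when 1 library was left out. Atf3, a stress-induced transcription factor of injured neurons, was at 27.6, 29.9 and 35.3 against 15.7, 15.2 and 14.1 and did not pass (log2 difference 0.99, adjusted p = 0.109). Sprr1a, a growth-associated protein of injured neurons, was at 9.16 in laser 3 and at most 0.572 in the other 5 libraries (log2 difference 1.41, adjusted p = 1.00).

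The title of the series names angiogenesis, and vessel genes were read as a group of their own. Of 19 tested angiogenic factors and receptors 0 passed and 3 were at an unadjusted p under 0.05 (limma), with a median difference of 0.03 that lay between -0.05 and 0.15 when 1 library was left out. Vegfa, the main growth factor of new vessels, was at 43.9, 67.8 and 66.6 in lasered retinas and 54.8, 83.1 and 72.5 in controls (log2 difference -0.24, SE 0.23, adjusted p = 1.00). Its receptor gene Kdr was at 43.7, 95.9 and 59.4 against 23.3, 48.8 and 32.8 (log2 difference 0.89, SE 0.35, adjusted p = 1.00), and it passed with the replicate block (adjusted p = 0.0465), with replicate 2 the highest in both groups. Pgf, a relative of Vegfa that binds its other receptor, was at 4.40, 2.26 and 3.30 against 1.51, 1.11 and 1.32 (log2 difference 0.88, SE 0.27, adjusted p = 0.777). Angpt2, which loosens vessel walls, was at 1.20, 2.78 and 1.31 against 1.21, 2.28 and 1.49 (log2 difference 0.03, adjusted p = 1.00). Pgf was separated between the groups, whereas Vegfa, Kdr and Angpt2 overlapped. All 9 tested endothelial genes lay below 0 (median -0.20), with 0 of 9 at an unadjusted p under 0.05 and overlapping groups in each. Without laser 2 it was 7 of 9 with a median of -0.09, without control 1 it was 8 of 9 with -0.12, and without control 3 or laser 3 the median was -0.34 and -0.37. Between same-numbered lasered and control retinas the median was -0.51, -0.66 and 0.46 for replicates 1, 2 and 3. The direction thus reversed in replicate 3. Cldn5, the tight junction protein of vessels, was at 29.7, 14 and 38.4 against 56.6, 43.2 and 20.4 (log2 difference -0.53, SE 0.46, adjusted p = 1.00). Pericyte and smooth muscle genes had a median of -0.14 over 7 members, 2 of them at an unadjusted p under 0.05 and lower, and the median was -0.06 without control 2, -0.28 without control 3 and -0.23 without laser 3. Their median between same-numbered retinas was -0.19, -0.45 and 0.18 for replicates 1, 2 and 3. The extracellular matrix list had a median of 0.19 over 14 members, 3 of them at an unadjusted p under 0.05 and higher. Without control 1 its median was 0.02, with 7 members above and 7 below 0. Its member Sparc, a matrix-binding glycoprotein, was at 318, 403 and 359 against 246, 229.6 and 232 (log2 difference 0.60, adjusted p = 0.346). Cell cycle genes had a median of -0.04 over 6 members (-0.08 to 0.03 without 1 library), with 0 at an unadjusted p under 0.05.

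Tissues next to the retina and blood differed between single libraries. Pigment epithelium and melanocyte genes summed to 422, 685 and 828 in lasered retinas and 343, 480.0 and 800.4 in controls, with 0 of 9 past the threshold and 1 at an unadjusted p under 0.05 (limma). Rpe65, the isomerase of the visual cycle, was at 7.90, 41.2 and 18.3 against 4.33, 20.3 and 19.6, and the melanosome protein gene Pmel at 8.84, 6.24 and 9.53 against 38.6, 13.6 and 18.2 (log2 difference -1.30, SE 0.37, adjusted p = 0.687). Lens genes summed to 2011, 141 and 188 against 138, 107 and 142, so laser 1 stood alone, and without it the median of the 16 tested lens genes went from 1.59 to -0.05. The 4 globin genes tested were lower in lasered retinas without overlap, each at an unadjusted p under 0.05, but 0 of 4 passed. Hba-a2 was at 12.9, 10.9 and 12.7 against 33.3, 27.9 and 23.3 (log2 difference -1.14, adjusted p = 0.113) and Hbb-bs at 13.3, 8.69 and 10.6 against 38.4, 27.7 and 17.1 (log2 difference -1.22, adjusted p = 0.464). The red cell genes Alas2 and Slc4a1 were at most 0.226 in any library. Hba-a1 and Hba-a2 are near-identical copies and can share reads.

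**Figure D4:**
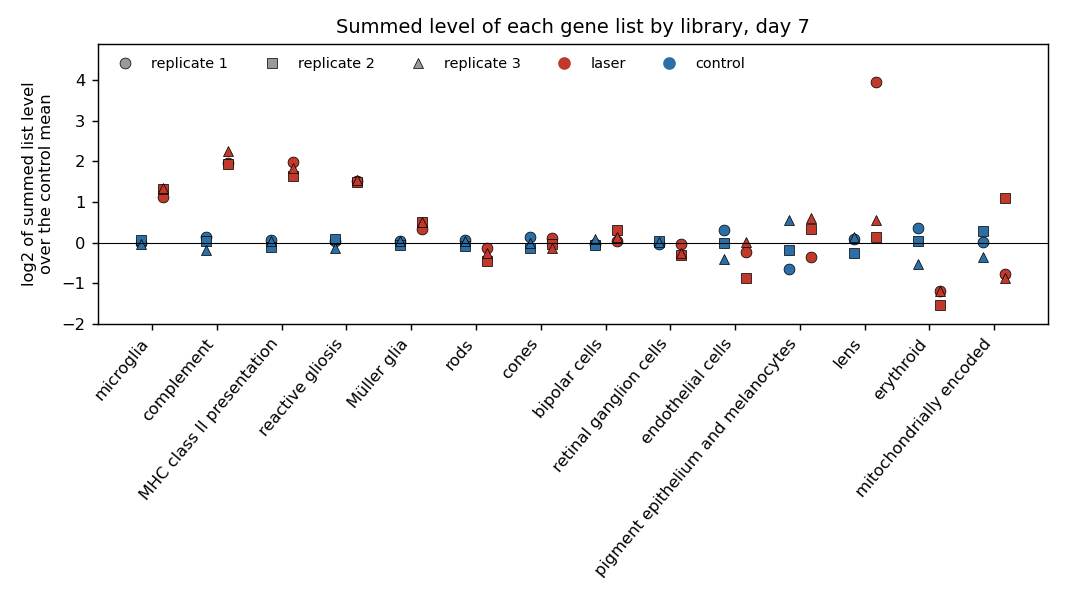
Log2 of the summed deposited value of each gene list over the mean of the 3 control libraries, with laser libraries in red, control libraries in blue and the marker shape giving the replicate number. Microglia, complement, MHC class II and gliosis sums lie above the controls in each laser library, whereas the lens sum stands out in laser 1 and the mitochondrially encoded sum in laser 2.

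A further 4 risers are in no list. Slc6a2, the noradrenaline transporter, had 4.61, 4.98 and 7.71 in lasered retinas and 0.269, 0.449 and 0.119 in controls (log2 difference 2.38, SE 0.27, adjusted p = 0.0247). Lad1, an anchoring filament protein of basement membranes, had 11.1, 8.92 and 11.9 against 1.37, 2.72 and 1.07 (log2 difference 2.13, SE 0.29, adjusted p = 0.0473), and its call was lost with the replicate block (adjusted p = 0.0512). The long intergenic RNA CT025671.4 on chromosome 17 had 4.48, 5.11 and 4.30 against 0.589, 0.649 and 0.289 (log2 difference 1.91, SE 0.23, adjusted p = 0.0372). Gm37904, a processed pseudogene on chromosome 1, had 25.3, 39.9 and 26.1 against 5.49, 3.88 and 2.46 (log2 difference 2.69, SE 0.30, adjusted p = 0.0230), and its reads may belong to its parent gene. Each of these 4 was separated between the groups.

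Gm22751 was the gene that fell. It is annotated as a miRNA of 109 bases on chromosome 11 (45829779 to 45829887) and is named here after its values were seen. It had 0 reads in each laser library against 4, 5 and 3 in controls, or 4.15, 4.46 and 3.43 as deposited values (log2 difference -2.32, SE 0.23, adjusted p = 0.0189). It did not pass with voom on the recovered reads (adjusted p = 0.293). On day 3 it was at 76.1, 28.5 and 25.9 in lasered and 15.3, 18 and 26.5 in control retinas.

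The laser differences of day 7 can be set beside those of day 3, which came from other retinas and a table normalized on its own, so differences and not levels are compared. Control levels differed widely between the days. C1qa was at 0.839, 0.572 and 1.54 in day 3 controls against 36.6, 32.4 and 27.3 on day 7. B2m went the other way, with 80.2, 91.1 and 89.1 against 20.04, 41.3 and 26. On log2(value + 1) a control level near 1 shrinks the difference, so the sizes of the differences are not strictly comparable between the days. All 37 risers were tested on day 3 as well and lay above 0 there, and in 28 of them the difference was larger on day 3. The shares of all genes that did so were not counted. Over the 17611 genes of the interaction test below, the median of day 7 minus day 3 was -0.11. Most genes thus had the higher difference on day 3, and the 28 are not a trait of the risers. The difference between the days was tested by the interaction of day and laser over the 12 libraries. None of 17611 genes passed (0%; limma, smallest adjusted p 0.171), whereas 1654 (9.39%) were at an unadjusted p under 0.05, among them 9 of the 38 genes called on day 7. Crym went from 824, 306 and 353 against 56.8, 65.3 and 50.2 on day 3 to the values above, a log2 difference of 2.94 on day 3 and 1.26 on day 7 (day 7 minus day 3 -1.68, SE 0.42, unadjusted p = 0.00187, adjusted p = 0.382). Gfap differed by 4.45 on day 3 and 2.40 on day 7 (day 7 minus day 3 -2.05, SE 0.69, unadjusted p = 0.0117, adjusted p = 0.403). In Cd74 the difference was 2.99 on day 3 and 3.98 on day 7, and in H2-Eb1 2.50 and 3.69, the larger on day 7 in both, but neither differed between the days beyond the spread of the libraries (unadjusted p = 0.340 and 0.217). Laser 1 of day 3 lay far above the other lasered retinas of that day in many of these genes, as in Lyz2 with 661, 30.7 and 64.1 against 3.86, 6.25 and 5.29 in controls. Without that library 5 genes passed the interaction test, without control 3 of day 3 it was 3, and without laser 2 or laser 3 of day 7 it was 1 each.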

How the data were processed

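Poly(A) RNA of 6 day 7 retinas was sequenced with a directional kit, per the labels' protocols, and the 6 day 3 libraries entered only the interaction and the joint fit. Per the submitters' processing notes, the tools include STAR 2.7.0 and edgeR 3.28.0 and the build is mm10, with no role stated. No source used here gives the counter, whether it used strand, or the annotation. The deposited signal per gene comes in a table per day that the authors name as TPM. The day 7 columns sum to between 953049 and 1039002, which true TPM would not. Multiplied by union exon length (GENCODE M21, same start and end for 53681 of 54367 genes), and divided by a factor that cycles over 6 values between 0.962 and 1.05, each library's values fell on whole steps. Of the values under 20 reads, 99.8% per library were then whole within 0.05, where chance gives 10%. The factor shifted the groups by at most 0.0022 on the log2 scale, and the main test kept the deposited values.

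R 4.3.3 with limma 3.58.1 fitted log2(value + 1) of the genes whose mean reached 1 (lmFit, then eBayes with trend, 2-sided), with Benjamini-Hochberg adjustment and a threshold of 0.05. TPM had been assumed when the test was written down, and the test was kept for the signal. Deviations from the group means correlated by 0.485, 0.559 and 0.128 between same-numbered lasered and control retinas. Between differently numbered ones they correlated by -0.533 to 0.205. Laser 3 correlated more with control 1 (0.205) than with control 3 (0.128), so the pairing of replicate 3 is uncertain. A fit that took the numbers as pairs, with the replicate number as a block, was an alternative. Other alternatives were pseudocounts, filters, median-of-ratios and quantile scaling, library weights, all 12 libraries in a joint fit, leaving out each library and, chosen after seeing the data, undoing the factor and voom on the recovered reads. On simulated data for this comparison with 15592 genes, 30%, 66%, 92% and 98% of genes changed by log2 1, 2, 3 and 4 were called, with 8 false calls among 151. The simulated noise was independent between genes and libraries. It lacked the deviations that the real libraries share across genes, so these rates may not hold for the real data.

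The comparison and the 37 gene lists (519 genes) were chosen with earlier results of these data known. The text names the called genes, up to 4 members per list by smallest p, 23 genes fixed by name, and marker genes at or near 0, and some genes so chosen are not reported here. Promoters are those of RefSeq (GRCm38.p6), searched on both strands. Coordinates are those of the files. Tables and plots were made with Python 3.11.15, NumPy 2.4.6, pandas 2.3.3 and matplotlib 3.10.9. Symbols shared by 2 or more genes concern 92 further rows, and 0 columns lacked a sample.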

Additional observations from a re-analysis of the deposited data

How the results depend on the processing

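A group of 3 libraries limits the calls. The 38 genes called on day 7 kept their direction under each alternative in which they were refitted. The replicate block gave 53 genes (52 rose), with 36 of the 38 among them. A pseudocount of 0.1 gave 33, a mean of at least 5 gave 28, quantile normalization 32, and undoing the cyclic factor, chosen after seeing the data, 34. The count moved by more than 1.5 times with no filter (13), median-of-ratios rescaling (24), library weights (114, of which 105 rose), the joint fit of 12 libraries (25, of which 14 were among the 38) and voom on the recovered reads, chosen after seeing the data (15). Leaving out 1 library gave 0 to 41. For the difference between day 7 and day 3, 0 genes passed in the main test and with the replicate block, 2 with a pseudocount of 0.1, 28 with no filter (11 higher and 17 lower on day 7), and 0 to 5 when 1 library was left out.

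Few values that had not passed changed sign. Edn1, at 0.02, became -0.041 with median-of-ratios rescaling and -0.059 with quantile normalization, and lay between -0.14 and 0.26 without 1 library. Angpt2, at 0.03, became -0.036 and -0.063 under those scalings and -0.080 with library weights, and lay between -0.22 and 0.20 without 1 library. Rpe65, at 0.54, became -0.77 with library weights and lay between -0.11 and 1.10 without 1 library. Cldn5, at -0.53, became 0.31 with library weights. Without 1 library Ece1 lay between -0.18 and 0.072 and Cryaa between -0.14 and 4.37.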

Other observations

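Genes of cholesterol synthesis and uptake were looked at after their values had been seen, so their pattern is a description with no support of its own. Of 25 such genes tested 0 passed the threshold (limma), 10 were lower and 0 higher at an unadjusted p under 0.05, and 22 of 25 lay below 0, with a median difference of -0.47 against 0.06 over all genes. Their summed level was 885, 829.7 and 808 in lasered retinas and 1185, 1245 and 1114 in controls, without overlap. Insig1, a sterol-regulated brake on the pathway, was at 58, 65.7 and 44.2 against 94.3, 147 and 98.9 (log2 difference -0.99, SE 0.22, adjusted p = 0.346). The median stayed between -0.66 and -0.32 when any 1 library was left out. In the same lasered retinas Apoe, the main lipid carrier of retinal glia, was at 4338, 2715 and 4315 against 2053, 1507 and 1825 and did not pass (log2 difference 1.06, adjusted p = 0.366).

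Glycolysis, immediate early and circadian clock genes had medians of -0.03, 0.06 and 0.04 over 15, 13 and 14 tested members, and 0 passed in each list, with medians between -0.11 and 0.09 when 1 library was left out (limma; 1, 1 and 0 at an unadjusted p under 0.05). Hk2, the hexokinase isoform of photoreceptors, was at 281, 198 and 241 in lasered retinas and 330.0, 323 and 297 in controls (log2 difference -0.41, SE 0.16, adjusted p = 1.00). Skeletal muscle genes had a median of -0.04 over 3 members (-0.14 to 0.04 without 1 library), and 0 of 6 corneal and conjunctival genes reached the mean of 1.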
